A study of Mus musculus with 2 samples.

Results

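The 4 TCF/LEF motifs, LEF1, Tcf7, TCF7L1 and TCF7L2, are the recognition patterns of the transcription factors through which Wnt signalling reaches its target genes. They were taken by name from the 579 transcription factor motifs that were counted in single cells of wild-type (WT) mouse retina at E14.5, and all 4 were present. The study assayed chromatin accessibility with the droplet-based single-cell ATAC protocol of 10x Genomics, in which a transposase cuts open chromatin. The labels give 2 replicate libraries of 1 group, from dissociated whole retina, with no other genotype, treatment or age, so no groups of samples were compared. Whether the replicates are separate animals is not stated, so the spread between them may be technical. SDs measure only how far these 2 libraries differ. The p-values weigh a difference between classes or clusters of cells against how far it varies between the 2 libraries. In the main settings the level of each library is taken out first.

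Wnt ligands bind Frizzled receptors and their LRP co-receptors, and β-catenin then accumulates and enters the nucleus. There it joins TCF/LEF factors already on the DNA, which without it hold target genes down together with Groucho/TLE co-repressors. In the developing eye the pathway is known for its activity in the pigment epithelium and at the rim of the optic cup, the later ciliary margin. LEF1 and TCF7 mostly act as activators with β-catenin, TCF7L1 mostly as a repressor, and TCF7L2 can act both ways. All share a high-mobility-group (HMG) box that bends DNA, a domain also found in SRY and the SOX factors.

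The deposited values are whole-number counts of transposase cuts in peaks that hold a motif. A motif count is thus the summed accessibility of all peaks with that pattern, and it shows neither binding nor the level of the factor. Since the motifs resemble each other, a peak can add the same cuts to several of them. As an example of the letters concerned, the textbook core of TCF/LEF sites, CTTTGAA or CTTTGAT on either strand, was searched in the 250 bases before the starts of RefSeq genes (GRCm38.p6). Either core stood in 7.48% of 32851 such stretches. Of 14 genes of the pathway, 10 were in the RefSeq table, with 17 such stretches. A match stood in 2 of the 17, too few to set against the share of all stretches. Sp5, a transcription factor gene induced by Wnt, and Dkk1, a secreted Wnt inhibitor, held 1 match each. The windows below show them on the gene's strand with the core in capitals, at chr2:70474802-70474842 (plus strand) for Sp5 and chr19:30549590-30549630 (minus strand) for Dkk1, both in the promoter upstream of exon 1. A match is a description of the letters and not a site, and peaks over these promoters were not analysed here.
Sp5: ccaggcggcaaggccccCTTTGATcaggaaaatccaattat
Dkk1: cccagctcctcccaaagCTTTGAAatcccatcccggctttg

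Cells were barcodes with at least 300000 motif counts and more counts than the same barcode had in the other library. This kept 890 of 2422 barcodes of replicate 1 and 1051 of 3033 of replicate 2, with medians of 3519151 and 3523871 counts. Of all barcodes 1828 occurred in both libraries, and 872 and 925 of the kept cells had such a copy. Only 2 barcodes passed the minimum in both libraries, and of these the deeper copy was used.

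TCF7L2 was the most frequent of the 4 motifs and TCF7L1 the least frequent. TCF7L2 (MA0523.1) took 299.0 CPM (counts per 1000000 motif counts) in replicate 1 and 312.3 in replicate 2. LEF1 (MA0768.1) followed with 194.1 and 201.4 CPM. Both lay slightly higher in replicate 2, with ratios of replicate 1 over replicate 2 of 0.958 and 0.963, and ranked 342 and 338 (TCF7L2) and 418 and 413 (LEF1) of 579. TCF7L1 (MA1421.1) took 122.5 and 123.1 CPM, the nearest agreement of the 4. Tcf7 (MA0769.1) took 122.5 in replicate 1 and 150.9 in replicate 2. The order TCF7L2, LEF1, Tcf7, TCF7L1 held in replicate 2, while the last 2 were level in replicate 1. Counting error was small beside these gaps: the Wilson 95% interval of Tcf7 ran from 0.0122% to 0.0123% of counts in replicate 1 and from 0.0150% to 0.0151% in replicate 2. Such intervals cover counting error only.

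**Figure D1:**
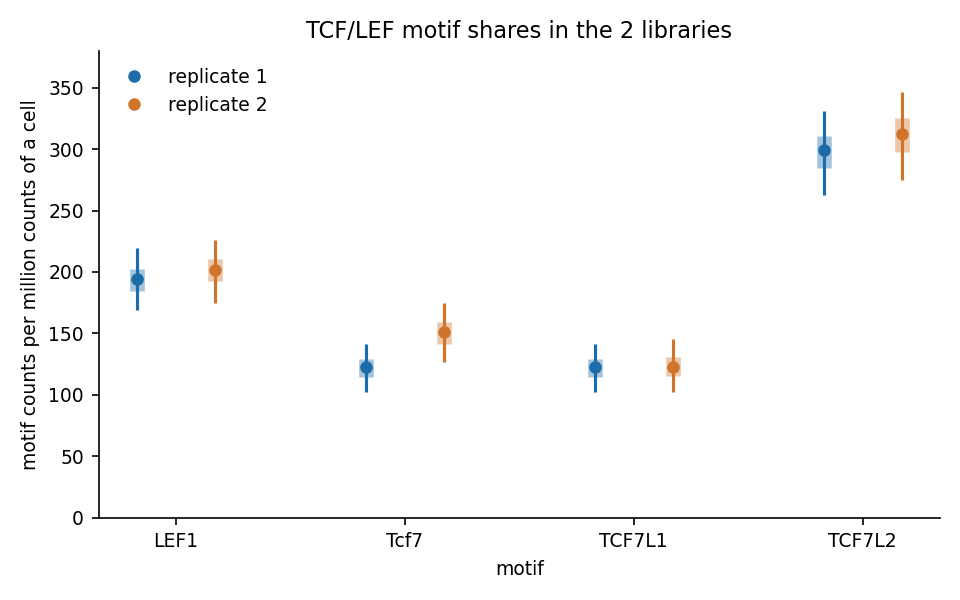
Share of each TCF/LEF motif in CPM (vertical axis) in replicate 1 and replicate 2. Points are the pooled share of a library, thick bars the middle 50% of cells and thin bars the 5th to 95th percentile of cells. Tcf7 stands at 122.5 CPM in replicate 1 and 150.9 in replicate 2, while TCF7L1 stands at 122.5 and 123.1.

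The shift of Tcf7 between libraries was large for this data set. Its log2 ratio of replicate 1 over replicate 2 was −0.30, rank 14 of 579 motifs by absolute size, against a median absolute ratio of 0.021. LEF1 (−0.054), TCF7L2 (−0.063) and TCF7L1 (−0.0066) ranked 141, 118 and 465. No test was possible for these ratios, each of which sets a single library against another.

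Tcf7 and TCF7L1 had exactly the same count in all 890 cells of replicate 1, and in all 2422 of its barcodes, so that library holds 3 and not 4 separate TCF/LEF measurements. In replicate 2 they were equal in 2 of 1051 cells, and Tcf7 was above TCF7L1 in the other 1049. TCF7L1 never exceeded Tcf7 there, in 0 of 3033 barcodes. For LEF1 against Tcf7, the next pair in level, the order was not as strict: over all barcodes LEF1 was below Tcf7 in 224 of 2422 and in 386 of 3033. The surplus of Tcf7 was 106314 counts, 18.4% of its own total, with a median of 94 per cell. Of all motif pairs, 58 had identical counts in both libraries, 2 in replicate 1 only and 0 in replicate 2 only. Besides Tcf7 and TCF7L1 the other such pair was Lhx8 and PAX4, named here after its values were seen. How peaks were called and searched for motifs is not given in the sources used here. The reason for the difference was not tested.

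**Figure D2:**
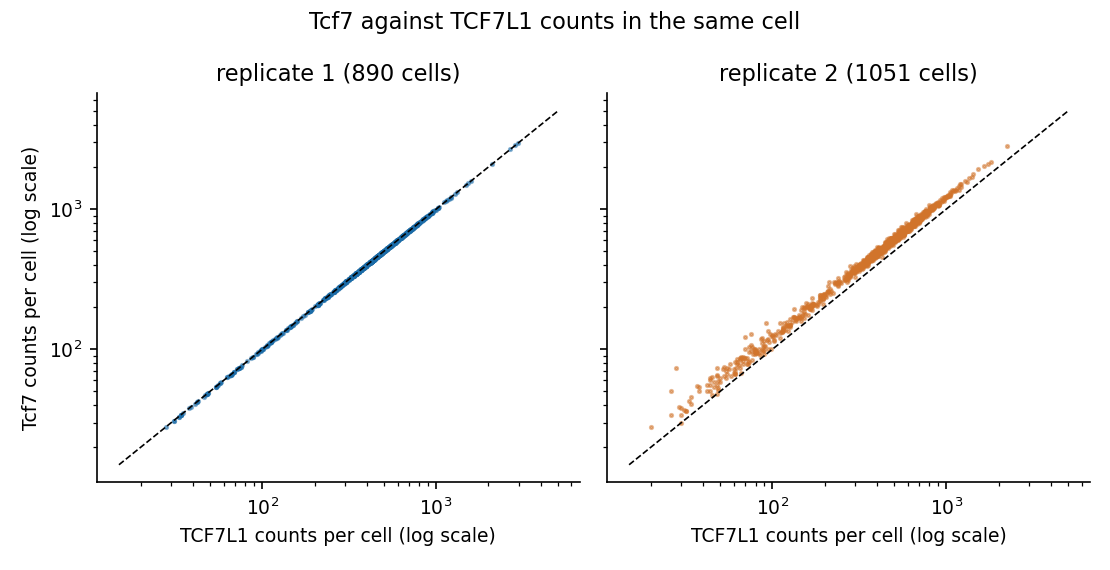
Tcf7 counts (vertical axis) against TCF7L1 counts (horizontal axis) in each kept cell, both on log scales, with replicate 1 on the left and replicate 2 on the right. All 890 cells of replicate 1 lie on the dashed line of equal counts, and 1049 of 1051 cells of replicate 2 lie above it.

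The Tcf7 surplus of replicate 2 was spread over the retina. It came to 27.8 CPM over all kept cells (exact Poisson 95% interval 27.6 to 28.0). Across clusters built without the TCF/LEF motifs, described below, it ran from 24.8 CPM (24.4 to 25.3) in cluster 3 to 28.6 (28.2 to 29.1) in cluster 6. Cluster 3, the lowest, was the cluster with the highest share of POU class 4 motifs. Between cells with high and low POU4 motif scores the surplus was 26.5 (26.2 to 26.8) and 28.2 CPM (27.9 to 28.5). These values come from 1 library and have no replicate check.

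No kept cell lacked any of the 4 motifs. LEF1 had a median of 674 counts per cell in replicate 1 (5th to 95th percentile 120.5 to 1336) and of 709 in replicate 2. Tcf7 had medians of 428 and 530, TCF7L1 of 428 and 434, and TCF7L2 of 1030 and 1097. At these counts the Poisson error alone gives a coefficient of variation (CV) between cells from 3.85% (TCF7L2, replicate 1) to 6.48% (TCF7L1, replicate 2).

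The variation between cells beyond that error was modest. For TCF7L2 the excess CV was 6.35% ± 0.25 (SD, n = 2), and for LEF1 it was 6.64% ± 0.84. Tcf7 had 8.18% ± 0.084 and TCF7L1 8.93% ± 1.2. The median motif had 6.19% and 6.27% in the 2 libraries, but rarer motifs have higher values. Relative to motifs of similar mean count (a lowess fit of the log2 CV), the residuals were −0.011 ± 0.059 for TCF7L2, −0.017 ± 0.15 for TCF7L1, −0.082 ± 0.058 for Tcf7 and −0.19 ± 0.19 for LEF1. The 4 motifs therefore varied about as much as motifs of like frequency, and LEF1 in replicate 2 less (−0.32, rank 507 of 579). The CVs depend on depth: with a minimum of 1000000 counts TCF7L2 had 5.54%.

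Members differed with the depth of a cell by amounts near those of many list differences given below, and the part of depth in those was not tested beyond the middle depth class. Between the deep and the shallow of 3 equal depth classes TCF7L2 differed by a log2 of 0.042 and 0.038 in the 2 libraries, and LEF1 by 0.023 and 0.0098. For Tcf7 and TCF7L1 the values were 0.040 in replicate 1 and 0.012 and 0.0049 in replicate 2. The median absolute difference of all motifs was 0.024 and 0.017, so TCF7L2 lay above it in both libraries and Tcf7 and TCF7L1 in replicate 1. In barcodes under 300000 counts the shares were close to those of cells: TCF7L2 took 0.0301% there against 0.0299% in replicate 1, and 0.0310% against 0.0312% in replicate 2. All 8 differences, for 4 motifs in 2 libraries, lay between −0.0085 and 0.019 on the log2 scale. Many of these barcodes were copies of kept cells of the other library, so the likeness is no independent check. Copies of 925 kept cells of replicate 2 occurred in replicate 1, and copies of 872 kept cells of replicate 1 in replicate 2. Only 2 barcodes passed the minimum in both.

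Across the cells of a library the members varied together to a limited degree. After removal of depth, LEF1 had a Pearson r with Tcf7 of 0.44 in 890 cells and 0.48 in 1051 cells, and with TCF7L2 of 0.44 and 0.39. TCF7L2 had an r with TCF7L1 of 0.37 and 0.36. In replicate 2, where Tcf7 and TCF7L1 are separate, their r was 0.90. All motifs of a cell share its library, its depth and many of its peaks, so these correlations are descriptions.

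The motifs most like the mean of the 4 members were mainly homeodomain patterns. That mean counts Tcf7 and TCF7L1 separately, though in replicate 1 they are the same measurement. The highest mean r of the 2 libraries belonged to LMX1B (0.36), followed by BARX1 (0.35), Dlx2 (0.35), BSX (0.35), TEAD3 (0.35), PDX1 and VAX2 with identical counts (0.35) and VAX1 (0.34). LMX1B, BARX1, Dlx2, BSX, PDX1, VAX1 and VAX2 are homeodomain factors that read AT-rich DNA, and TEAD3 is a factor of Hippo signalling. At the other end stood NRF1 (−0.39), SP2 (−0.38), SP1 (−0.37) and Zfx (−0.37), patterns of GC-rich promoters. Over all 575 other motifs the median r was 0.035.

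The HMG-box relatives did not lead this order. All 16 SOX and SRY motifs had a mean r above 0, with a median of 0.19, but the highest of them, Sox17 (0.28), ranked 26 and SOX15 (0.27) ranked 36. SOX21 (0.0018) and SOX4 (0.039) were lowest. TEAD motifs had a median of 0.20. The 4 MITF and TFE motifs, listed for the pigment epithelium, had a median of −0.28 and the 10 SP and KLF promoter motifs of −0.35. POU class 4 (0.0054), proneural (0.0081) and CRX/OTX motifs (−0.012) stood near 0.

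Among the single members TCF7L2 had the closest partner outside the family. Its r with TEAD3 was 0.44 in replicate 1 and 0.42 in replicate 2. The identical MSX1, MSX2 and Msx3 motifs followed with 0.39 and 0.37. For LEF1 the closest was Nkx2-5 (0.33 and 0.26), and for Tcf7 (0.28 and 0.26) and TCF7L1 (0.28 and 0.31) it was BARX1. LEF1 had an r with TEAD3 of 0.26 and 0.092.

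**Figure D3:**
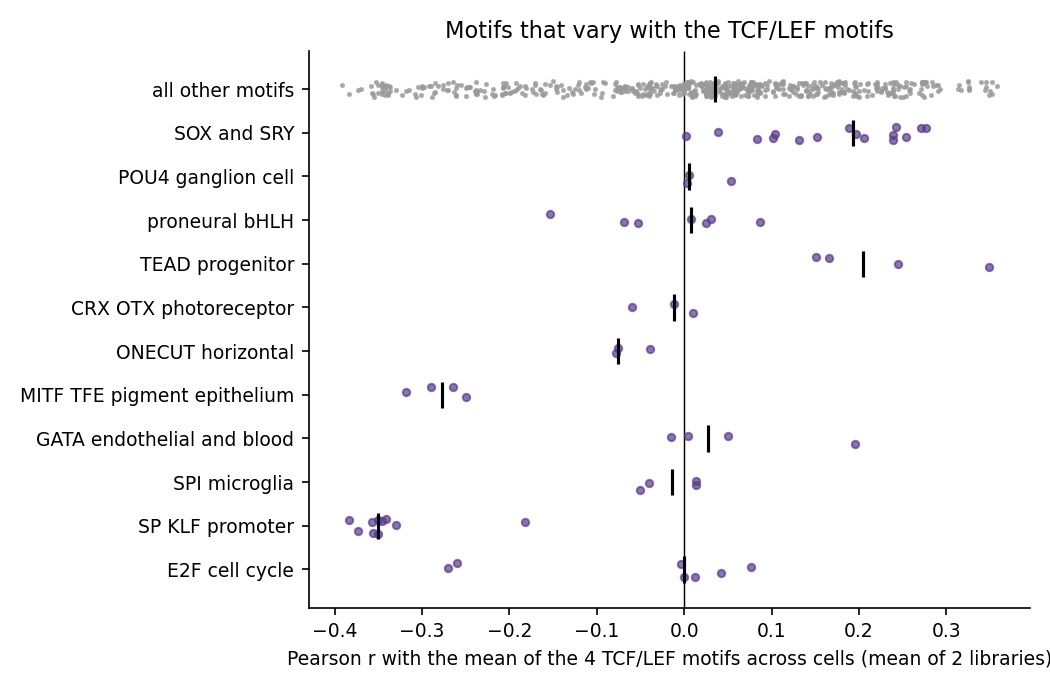
Pearson r across cells between each motif and the mean of the 4 TCF/LEF motifs after removal of depth, as the mean of both libraries (horizontal axis), for all 575 other motifs and for motif lists (rows). Each point is a motif and each black bar a median. SOX and SRY motifs lie above 0, with a median of 0.19, and SP and KLF promoter motifs lie below 0, with a median of −0.35.

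To describe how the members went with other motifs, cells were scored on 12 lists of motifs that hold none of the members. Since a peak can add the same cuts to a listed motif and to a member, the scores are not independent of the members. The p-values below do not take this into account. The lists were chosen for ganglion cells, newborn neurons, progenitors, photoreceptors, horizontal cells, pigment epithelium, blood and vessels, microglia, promoters and the cell cycle. Whether cells with high scores are of these types was not tested. Within each library the cells were cut into 3 equal classes by score. The summed counts of the high and low classes were compared with edgeR's quasi-likelihood test, with the library as a block and Benjamini-Hochberg adjustment over 579 motifs. A class is a range of a score and not a cell type: from 13.7% to 37.5% of cells lay within 0.1 SD of a cut. Of the 48 comparisons of a member with a list, 9 passed as higher and 12 as lower. Over all motifs and lists 4531 of 6948 tests passed, so members were called less often than motifs in general. The 48 count Tcf7 and TCF7L1 separately, though in replicate 1 they are the same measurement. The sign was the same in both libraries for 41 of all 48. It was so for all 21 that passed, but the test itself favours such comparisons. Adjusted over all 6948 tests together, 8 and 13 passed. TCF7L2 accounted for 9 of the 21 and each other member for 4. Calls were common, since from 29.2% to 84.8% of all motifs passed per list in either direction, and all differences of the members were small, the widest being 1.06-fold. The calls rest on the library as a block: with no replicate block 0 of 48 passed in edgeR (3 at an unadjusted p under 0.05), and DESeq2 with the block called 24.

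Cells with high TEAD scores had the clearest difference. TEAD factors act with YAP in the Hippo pathway and are known to be active in retinal progenitors. TCF7L2 stood at 287.3 CPM in the low and 307.3 in the high class of replicate 1, and at 301.9 and 319.4 in replicate 2. Its mean log2 difference was 0.089 ± 0.011 (SD, n = 2; edgeR adjusted p = 1.84e-06), rank 28 of 579 with the TEAD motifs themselves among those above it. Tcf7 rose from 119.6 to 124.2 and from 148.3 to 153.3 CPM, a log2 difference of 0.051 ± 0.0046 (edgeR adjusted p = 0.000872). TCF7L1, the same measurement as Tcf7 in replicate 1, rose from 121.3 to 125.5 in replicate 2 (edgeR adjusted p = 0.00278), so the calls of the 2 are not independent. LEF1 stood at 0.022 ± 0.020 and did not pass (edgeR adjusted p = 0.128). It passed with DESeq2 (adjusted p = 0.0460), without TMM (0.0499) and in the middle depth class (0.00956). So 3 of 4 members were called higher, as were 41.3% of all motifs. The median of the members was 0.051 and that of all motifs 0.003. The high class was deeper than the low class, 1.17 and 1.05 times by median total. Within cells of the middle depth class the TCF7L2 difference was 0.082 (edgeR log2 fold change).

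With the other progenitor lists the differences were smaller and depended more on the settings. With high SOX scores only TCF7L2 passed as higher, with a log2 difference of 0.047 ± 0.0075 (edgeR adjusted p = 3.27e-09). It went from 293.2 to 304.1 CPM in replicate 1 and from 307.3 to 316.5 in replicate 2. LEF1 (0.022), Tcf7 (0.017) and TCF7L1 (0.012) did not pass, though LEF1 did in the middle depth class (edgeR adjusted p = 0.0226). All 16 SOX and SRY motifs were higher by a median of 0.089, which the score itself fixes for 7 of them. Of all motifs 40.4% were called higher. With high scores on the list of progenitor homeodomain motifs all 4 members were called higher, as were 43% of all motifs. There TCF7L2 differed by 0.052 ± 0.012 and LEF1 by 0.036 ± 0.017 (edgeR adjusted p = 1.32e-05). For Tcf7 (0.021 ± 0.0099) and TCF7L1 (0.015 ± 0.018) the call was lost without TMM scaling, with a minimum of 100 counts per cell for a motif and with at least 1000000 counts per cell. The edgeR adjusted p of Tcf7 was then 0.0817, 0.0926 and 0.0546, and that of TCF7L1 was at least 0.239. TCF7L1 also lost it in the middle depth class (0.162) and with adjustment over all lists (0.0576).

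Promoter motifs moved against the members in these contrasts. All 10 SP and KLF motifs were lower in the high class of the TEAD, SOX and homeodomain lists, by medians of −0.024, −0.047 and −0.053. When the promoter score was regressed out of each list score, the TCF7L2 difference was 0.077 for TEAD and 0.026 for SOX scores (edgeR log2 fold changes). Tcf7 and TCF7L1 kept a difference of 0.030 and 0.027 for TEAD scores. For SOX scores they turned to −0.020 and −0.032 and both passed as lower (edgeR adjusted p of 0.0323 and 0.000446). For homeodomain scores they turned to −0.0095 and −0.021, of which that of TCF7L1 passed as lower (edgeR adjusted p = 0.0151). There LEF1 lost its call, at 0.0083 against 0.044 before (edgeR adjusted p = 0.299), and TCF7L2 stood at 0.032 against 0.060 (edgeR log2 fold changes) and still passed.

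Cells with high promoter scores had less of every member. In them LEF1 was lower by a log2 difference of −0.039 ± 0.020, from 197.6 to 190.5 CPM in replicate 1 and from 202.7 to 199.3 in replicate 2. TCF7L1 differed by −0.039 ± 0.0018, Tcf7 by −0.032 ± 0.012 and TCF7L2 by −0.026 ± 0.0043 (edgeR adjusted p from 0.000129 to 0.00370). Of all motifs 39.2% were called lower, and all 16 SOX and SRY motifs were, by a median of −0.034. In the middle depth class Tcf7 and TCF7L1 did not pass, with edgeR adjusted p of 0.0766 and 0.0811.

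All 4 members were lower in cells with high scores for MITF and TFE motifs. That list was chosen for the pigment epithelium, but whether these cells belong to it was not tested. TCF7L1 changed by −0.042 ± 0.022 (SD, n = 2), Tcf7 by −0.041 ± 0.023, TCF7L2 by −0.031 ± 0.014 and LEF1 by −0.031 ± 0.026 (edgeR adjusted p from 0.00649 to 0.0444). The differences in replicate 2 were smaller: LEF1 went from 196.8 to 190.2 CPM in replicate 1 and from 202.1 to 200.5 in replicate 2. Of all motifs 37.1% were called lower. All 10 promoter motifs were higher in the same cells, by a median of 0.047. With the promoter score regressed out no member passed in edgeR, and LEF1 stood at 0.0022, Tcf7 at −0.0080, TCF7L1 at −0.0021 and TCF7L2 at −0.0080 (adjusted p from 0.368 to 1).

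Along the neuronal lists TCF7L2 was the only member called under the main settings. With high proneural scores (NEUROD, NEUROG, ATOH1 and ASCL motifs, which drive neuron formation) it fell from 303.6 to 292.4 CPM in replicate 1 and from 315.9 to 304.4 in replicate 2. The log2 difference was −0.054 ± 0.00054 (edgeR adjusted p = 8.67e-05), and 32.6% of all motifs were called lower. LEF1 (−0.014), Tcf7 (−0.025) and TCF7L1 (−0.021) did not pass, though Tcf7 did with DESeq2 (adjusted p = 0.0443) and without TMM, and both Tcf7 and TCF7L1 did in the middle depth class (edgeR adjusted p of 0.0228 and 0.0140). With high scores on the ONECUT list, chosen for horizontal cells, TCF7L2 changed by −0.041 ± 0.012 (28.5% of motifs called lower). With high scores on the POU class 4 list, chosen for ganglion cells, TCF7L2 changed by −0.026, alike in both libraries (edgeR adjusted p = 0.00865). There 25% of motifs were called lower. Tcf7 did not pass there, but with the promoter score regressed out it did, at −0.018 (edgeR adjusted p = 0.0202). The TEAD motifs were called lower with high POU class 4 and proneural scores, all 4 in each. In each of the neuronal lists 1 of 4 members was called lower, which is no more than the share of all motifs.

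The remaining lists, for photoreceptors, microglia, blood and vessels and the cell cycle, each had at most 1 member called under the main settings. With high CRX and OTX scores LEF1 was the only member called, at 0.022 ± 0.0071 (edgeR adjusted p = 0.0119, 22.5% of motifs called higher), and in the middle depth class it stood at −0.0080. With high scores on the SPI list, chosen for microglia, TCF7L2 was lower at −0.028 ± 0.0091 (30.2% called lower). Whether these cells are microglia was not tested. For GATA motifs of blood and vessels edgeR called 0 members, also at an unadjusted p under 0.05 and with DESeq2, but with the promoter score regressed out LEF1 passed as lower, at −0.028 (edgeR adjusted p = 0.00898). For E2F motifs of the cell cycle edgeR called 0, with 1 at an unadjusted p under 0.05 and 1 with DESeq2 (TCF7L1, adjusted p = 0.0465), and with the promoter score regressed out TCF7L2 passed as higher, at 0.018 (edgeR adjusted p = 0.0186). Of all motifs 29.2% and 61% were called in these contrasts.

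The gap between TCF7L2 and the rest of the family can be read within each library. Its TEAD difference exceeded the mean of the other 3 members by 0.049 in replicate 1 and 0.047 in replicate 2. That mean counts Tcf7 and TCF7L1 separately, though in replicate 1 they are the same measurement. The proneural difference lay below theirs by −0.029 and −0.038, and the SOX difference above by 0.026 and 0.035. The sign was the same in both libraries for each of these. For GATA scores it differed (−0.0084 and 0.0050), and for MITF and TFE scores the gap was 0.014 and 8.7e-05. With 2 libraries the gap itself was not tested.

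**Figure D4:**
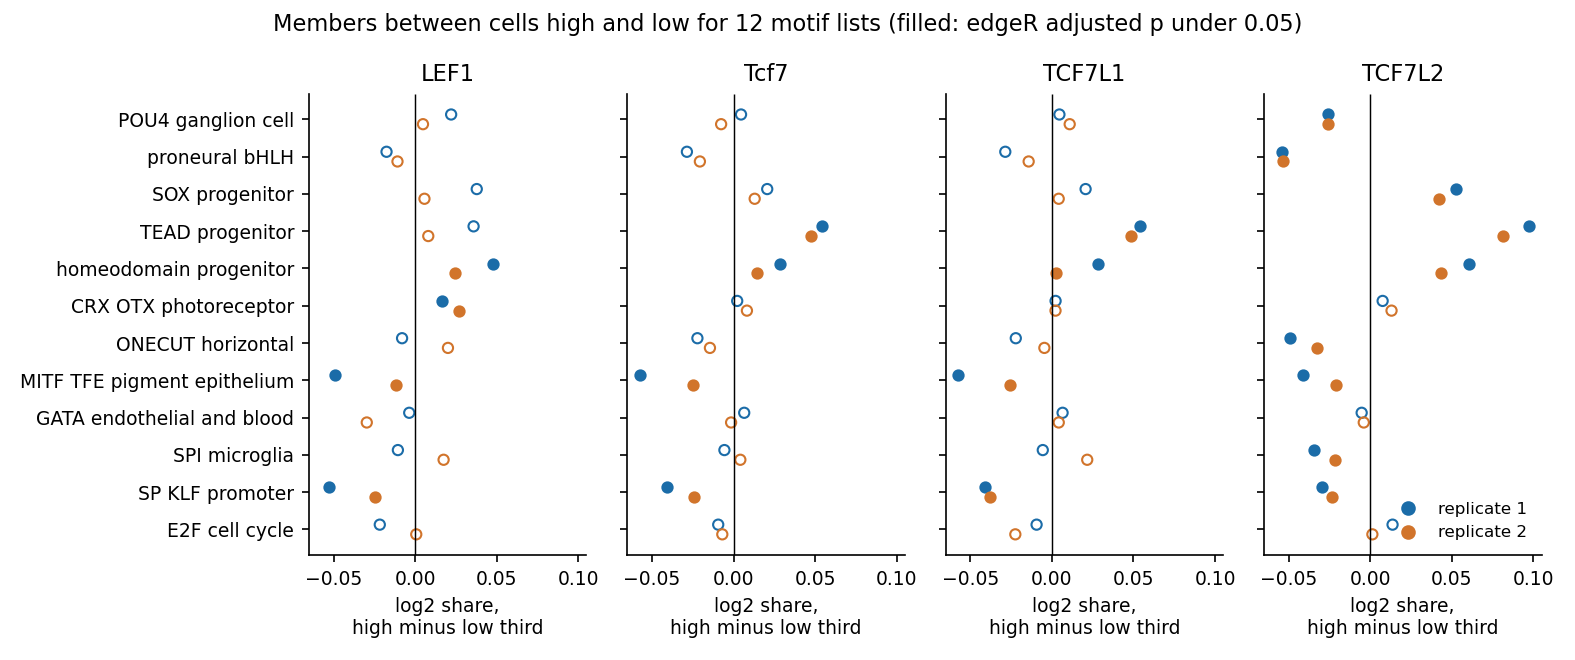
Log2 share of each member in the high minus the low of 3 equal classes of cells (horizontal axis) for 12 motif lists (rows), with 1 point per library. Filled points passed edgeR at an adjusted p under 0.05. TCF7L2 lies at 0.097 and 0.082 for TEAD scores, right of the other members, and at −0.054 and −0.053 for proneural scores.

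Clusters gave a view that does not rest on a single list. Cells of both libraries were clustered without the 4 members, and no other motif correlated with a member above 0.7 in both libraries. Since a peak can add the same cuts to several motifs, cuts in peaks of the members could still enter through other motifs. The clusters are thus not independent of the members. Of 8 clusters, cluster 7 was left out with 21 and 18 cells. Cluster 3 (14.2% and 14.3% of cells) was highest for POU class 4 motifs, by a log2 of 0.35 over the mean of the clusters, and cluster 8 (5.06% and 4.76%) for CRX/OTX motifs, by 0.18. Clusters 6 (0.12) and 8 (0.12) were highest for proneural motifs, cluster 5 (0.066) for TEAD and cluster 2 (0.057) for SOX motifs. Cluster 8 was also highest for SP and KLF promoter motifs (0.061) and MITF and TFE motifs (0.072). It was lowest for TEAD (−0.080) and SOX motifs (−0.079). The part of promoter motifs in the member values of cluster 8 was not tested. No cluster was given a cell type name. All 4 members differed among the clusters in edgeR's F test with 6 residual degrees of freedom, with adjusted p from 1.01e-06 to 0.00273. So did 97.4% of all motifs, so the call says nothing particular about them. With no replicate block only TCF7L1 passed (edgeR adjusted p = 0.0490).

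TCF7L2 was highest in cluster 5, at 309.4 and 318.3 CPM in the 2 libraries, and cluster 2 stood close to it at 304.4 and 318.0. It was lowest in cluster 8, at 279.5 and 292.8, and next lowest in cluster 3, at 283.3 and 298.5. The cells of cluster 5 were the deepest (1.27 and 1.28 times the median of their library) and those of cluster 8 the shallowest (0.763 and 0.848 times). Between clusters chosen in 1 library and measured in the other, TCF7L2 differed by a log2 of 0.13 ± 0.018 (SD, n = 2), and both choices were clusters 5 and 8. The median motif had 0.11 and the 16 SOX and SRY motifs a median of 0.14. Those motifs took part in building the clusters directly, and the members at most through shared peaks, so the values are not a like comparison.

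The other members spread less. Tcf7 differed by 0.067 ± 0.015 and TCF7L1 by 0.061 ± 0.0072, with cluster 8 lowest in both libraries. In that cluster Tcf7 had 118.8 and 142.9 CPM against 123.5 and 152.8 in cluster 1. With a minimum of 1000000 counts the values were 0.029 for Tcf7 and 0.012 for TCF7L1, and 0.13 for TCF7L2. LEF1 differed by 0.033 ± 0.031. The libraries did not choose the same clusters for it: replicate 1 chose clusters 2 and 8, and replicate 2 clusters 6 and 5. LEF1 in cluster 8 had 187.3 and 196.4 CPM, and in cluster 5 it had 193.1 and 196.0. Within the middle depth class LEF1 did not pass (edgeR adjusted p = 0.159).

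**Figure D5:**
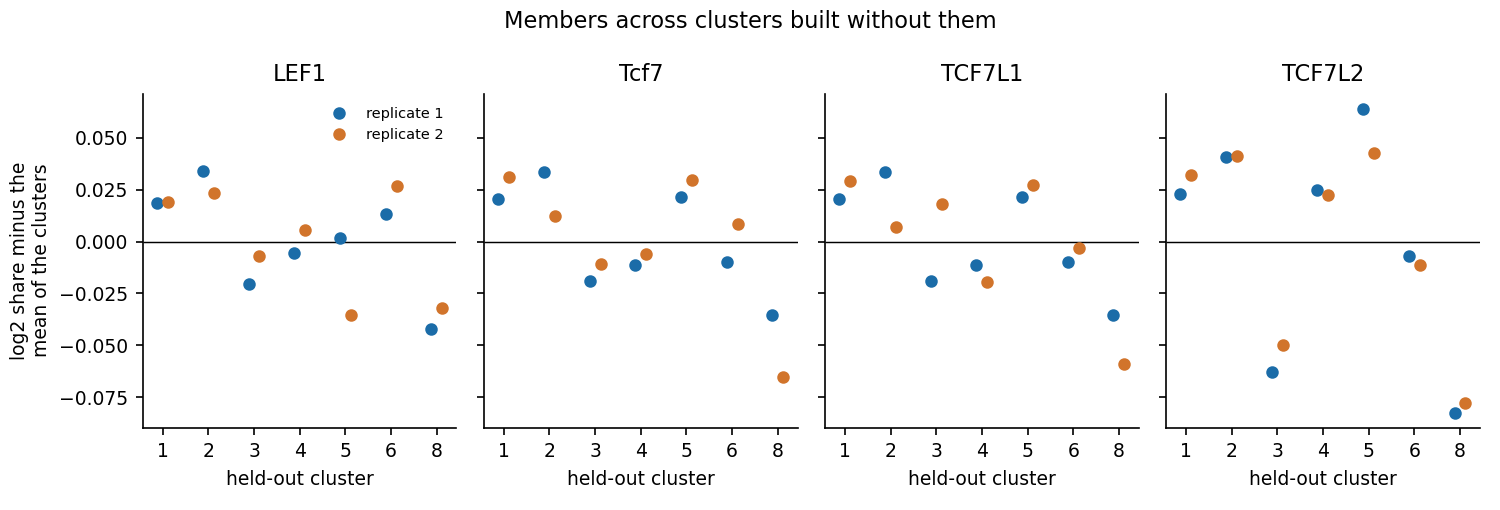
Log2 share of each member minus the mean of the clusters (vertical axis) in 7 clusters built without the members (horizontal axis), with 1 point per library. TCF7L2 lies highest in cluster 5 and lowest in cluster 8, and Tcf7 and TCF7L1 lie lowest in cluster 8.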

How the data were processed

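Per the file headers, each library is a whole-number count matrix of 579 motifs by barcode written by software version 1.1.0; the authors deposited raw counts with no normalization. Build mm10 and Cell Ranger are named in the submitters' processing notes. Shares are counts over the total of a cell, class or library. Scores are means of log2(counts per 10000 + pseudocount of 1), with log10 total regressed out and scaled within a library. Clustering used 15 principal components, 20 neighbours and Leiden at resolution 0.5 (scanpy 1.11.5, igraph 0.11.9), with at least 20 cells per library. Sums were tested with edgeR 4.0.16 (TMM, library as block, threshold 0.05). The trend of CV used a lowess span of 0.3. The library is the pairing, since classes and clusters come from the same 2 libraries. The tests and the CV were tried on simulated counts without shared peaks, with classes and clusters kept fixed. The effect of shared peaks on the calls was not tried. No doublet caller was run. Members and lists were chosen with earlier results of these data known. Named were the members, the 8 motifs of highest and 4 of lowest r with their mean, and motifs with rows identical to a member. DESeq2 1.42.0, other scaling, filters, depths, resolutions and classes were alternatives. Values of 1 motif in the progenitor homeodomain list are not reported here.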

Additional observations from a re-analysis of the deposited data

How the results depend on the processing

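Shares under the cell filters tried lay near those of the main settings for every member. In cells of 0.25 to 4 times the median total LEF1 took 198.5 CPM against 197.7, and Tcf7 135.4 against 136.7. TCF7L1 took 121.4 there against 122.8, and TCF7L2 309.6 against 305.7. As means over single cells Tcf7 stood at 136.1 and TCF7L1 at 122.3. The SD of the 2 libraries was very small for TCF7L1 and widest for Tcf7, so it gives no common limit for these moves. Over the single libraries shares ran from 194.1 to 201.4 (LEF1), 122.5 to 150.9 (Tcf7), 122.5 to 123.1 (TCF7L1) and 299.0 to 312.3 CPM (TCF7L2), and excess CVs from 6.05% to 7.23%, 8.12% to 8.24%, 8.12% to 9.75% and 6.18% to 6.53%. Excess CVs of LEF1, Tcf7, TCF7L1 and TCF7L2 were 41.0%, 51.3%, 54.9% and 31.0% in cells of 0.25 to 4 times the median total and 42.3%, 51.3%, 55.2% and 33.6% in all barcodes; with at least 1000000 counts they were 5.70%, 7.34% and 5.54% for LEF1, Tcf7 and TCF7L2. That median filter keeps mainly shallow barcodes.

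With no replicate block, 0 members passed as higher and 0 as lower in the list contrasts, with 928 calls over all motifs and lists against 4531, and 1 of 4 passed across clusters, where 376 of 579 motifs did against 564. With the median filter 1 passed as higher and 0 as lower (503 calls over all motifs), 0 of 4 passed across clusters (3 at an unadjusted p under 0.05 in edgeR) and 202 motifs did. There edgeR's log2 fold change of TCF7L2 turned for proneural (0.038), SOX (−0.033), TEAD (−0.013), ONECUT (0.0073), MITF and TFE (0.024) and promoter scores (0.0024), and that of Tcf7 (−0.10) and TCF7L1 (−0.10) for TEAD scores, none of them called. With the promoter score regressed out, Tcf7 turned for POU class 4 (−0.018), SOX (−0.020) and homeodomain scores (−0.0095), TCF7L1 for SOX (−0.032) and homeodomain scores (−0.021) and LEF1 for MITF and TFE scores (0.0022). Of these 6, Tcf7 for POU class 4 and SOX scores and TCF7L1 for SOX and homeodomain scores passed as lower (edgeR). In the middle depth class LEF1 turned for CRX and OTX scores (−0.0080). The cause of these changes was not tested. In the list contrasts 19 to 24 of 48 member comparisons passed, against 21, without TMM, with DESeq2, a minimum of 100 counts per cell, at least 1000000 counts, the middle depth class, 5 classes in place of 3 and the promoter score regressed out. Adjustment over all lists, chosen after seeing the data, gave 21. Leaving out motifs correlated above 0.5 removed no further motif. Leaving out a library left no residual degrees of freedom, so counts of calls have no such value.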
